A study of Mus musculus with 12 samples.

Results

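The m6A readers are proteins that bind RNA carrying N6-methyladenosine (m6A) and act on the fate of that RNA, and 10 of their genes were examined here in mouse embryonic fibroblasts (MEF). They are the YTH domain genes Ythdf1, Ythdf2, Ythdf3, Ythdc1 and Ythdc2, the insulin-like growth factor 2 mRNA-binding protein genes Igf2bp1, Igf2bp2 and Igf2bp3, and the hnRNP genes Hnrnpa2b1 and Hnrnpc. The genes were chosen by name, each value is the sum of the transcripts of the gene, and all 10 were among the 12979 genes of the table and among the 12273 genes tested. RNA sequencing covered 12 libraries in 4 groups of 3: HSF1 KO MEF given LiCl (20 mM, 48 h), untreated HSF1 KO MEF, WT MEF given the same LiCl, and untreated WT MEF. LiCl inhibits GSK3β and thereby activates WNT/β-catenin signaling, and HSF1 is the transcription factor of the heat shock response. How the knockout cells were derived, and whether they are 1 clone, is not given in the sources used here. As genotype, the labels name HSF1 KO, whereas a figure legend of the study writes HSF1+/- for the cells sequenced, and the name of the labels is used. Whether the libraries within a group stem from different cultures is not stated, and the p-values therefore cover only library-to-library spread, which may be technical.

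m6A is placed on nascent mRNA by a methyltransferase complex around METTL3, is removed by demethylases, and is read by proteins that differ in where they act. The YTH domain holds the methylated base in an aromatic pocket, and its cytoplasmic members are known for mRNA decay and translation, while YTHDC1 acts in the nucleus. The IGF2BP proteins bind through KH domains and are known for keeping target mRNAs stable, and HNRNPA2B1 and HNRNPC are nuclear proteins whose binding can depend on the RNA structure around the methylated base.

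Values are FPKM, fragments scaled to transcript length and library size. The library sums lay between 344208 and 370025 FPKM, and the depth in reads is unknown. Correlations between libraries were 0.976 to 0.983 within groups and 0.823 to 0.933 between groups. Hsf1, the targeted gene, was at 3.65, 7.64 and 5.92 FPKM in LiCl-treated HSF1 KO MEF and 0.94, 3.89 and 2.07 FPKM in untreated HSF1 KO MEF, against 14.52, 13.35 and 11.25 FPKM in LiCl-treated WT MEF and 11.08, 7.96 and 8.17 FPKM in untreated WT MEF. Under each condition every HSF1 KO MEF library was below every WT MEF library, by a log2 fold change of -1.70 untreated (limma, adjusted p = 0.00142) and -1.10 with LiCl (adjusted p = 0.0159). With LiCl the call was lost without replicate 1 of LiCl-treated HSF1 KO MEF (adjusted p = 0.0646) or replicate 1 of LiCl-treated WT MEF (adjusted p = 0.0516), and without replicate 3 of every group (adjusted p = 0.0959). With each transcript weighted by its length, the differences were -2.75 untreated and -2.17 with LiCl (limma, adjusted p = 3.27e-05 and 0.000185). What was left in the knockout lay mostly in a 3-exon transcript from the 3′ end of the gene (ENSMUST00000228688, 92.1% of the gene sum with LiCl and 83.4% untreated). The 13-exon transcript ENSMUST00000227478 was at 0.0251 and 0.0184 FPKM in HSF1 KO MEF with and without LiCl, against 3.78 and 2.47 FPKM in WT MEF. The differences passed, at -2.22 with LiCl and -1.76 untreated (limma over all transcripts, adjusted p = 3.34e-06 and 1.46e-05). Another 13-exon transcript, ENSMUST00000226872, was at 0.356 and 0.271 FPKM, against 1.14 and 1.52 FPKM in WT MEF. It was lower in untreated HSF1 KO MEF (-0.95, limma over all transcripts, adjusted p = 0.0201) and did not pass with LiCl (-0.65, adjusted p = 0.0882). A further one, ENSMUST00000228371, was at 0.0641 and 0.00637 FPKM, against 1.15 and 0.795 FPKM, and passed in neither comparison between genotypes. The 12-exon transcript ENSMUST00000072838 averaged 0 FPKM in both HSF1 KO MEF groups, against 1.82 and 1.5 FPKM in WT MEF with and without LiCl. It passed in both comparisons, at -1.48 with LiCl and -1.30 untreated (limma over all transcripts, adjusted p = 0.000315 and 0.000761). All 14 fibroblast markers were in the table. Their summed level was 1742 to 1813 FPKM in LiCl-treated HSF1 KO MEF and 3519 to 3735 FPKM in untreated HSF1 KO MEF, and 1611 to 1662 FPKM in LiCl-treated WT MEF and 5141 to 5509 FPKM in untreated WT MEF. Of these markers 11 fell with LiCl in HSF1 KO MEF and 13 in WT MEF, where 21.1% and 27.1% of all genes tested fell. The difference between the responses (HSF1 KO MEF minus WT MEF) passed for 10 of them, all higher, where 16.1% of all genes were higher. Of 6 epithelial markers 3 were in the table, Epcam and Cdh1 not among them. Their sum was 30.4 to 34.0 FPKM in LiCl-treated HSF1 KO MEF, against 3.18 to 4.81 FPKM untreated, and 25.3 to 27.8 FPKM in LiCl-treated WT MEF, against 7.99 to 9.74 FPKM untreated. The 2 tested rose with LiCl in both genotypes, where 36.5% of all genes tested rose in HSF1 KO MEF and 38.1% in WT MEF. The part of the fibroblast and epithelial markers in the reader changes was not tested. The endothelial, pluripotency and germline markers were not in the table. In bulk RNA, fewer cells of a type and less RNA per cell cannot be told apart.

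Across the family the levels in untreated WT MEF ran from Ythdc2 (2.24 ± 0.48 FPKM) to Hnrnpa2b1 (146.7 ± 1.55 FPKM; SD, n = 3). The order by mean was Hnrnpa2b1, Hnrnpc, Ythdf1, Ythdf3, Ythdf2, Igf2bp2, Ythdc1, Igf2bp3, Igf2bp1 and Ythdc2. Of the neighbours in this order, Ythdf3 and Ythdf2, Ythdf2 and Igf2bp2, and Ythdc1 and Igf2bp3 overlapped in their library ranges, and the other neighbours did not. The plot of levels by library shows the readers' main patterns. As deposited, Ythdf1, Ythdf3, Ythdc2 and Igf2bp1 were higher with LiCl in both genotypes, Hnrnpa2b1 and Hnrnpc were lower with LiCl in both, and Igf2bp3 was higher in HSF1 KO MEF under both conditions.

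**Figure D1:**
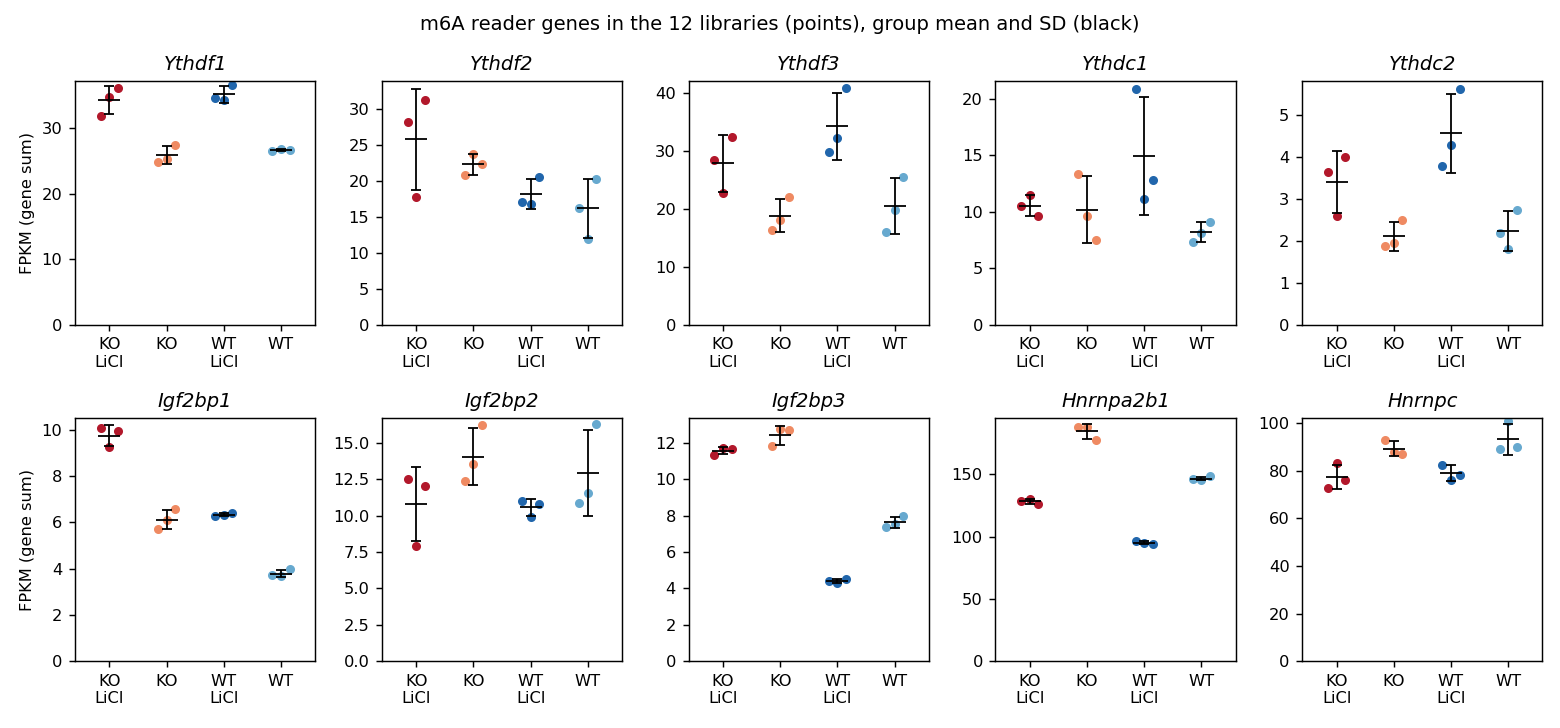
FPKM (linear axis from 0) of the 10 reader genes in the 12 libraries, with points for libraries and black marks for the group mean and SD. The 3 Igf2bp3 points of WT MEF with LiCl (4.29 to 4.5 FPKM) lie below every other library, and the Hnrnpa2b1 points of the 4 groups do not overlap.

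The first question was how readers responded to LiCl. In HSF1 KO MEF, 4 readers rose and 2 fell (limma, adjusted p under 0.05), where 57.6% of all genes tested passed, 36.5% higher and 21.1% lower. In WT MEF 5 rose and 3 fell, where 65.2% of all genes passed, 38.1% higher and 27.1% lower. With 10 readers, both counts are near the share in the whole table. The libraries with and without LiCl did not overlap for 7 readers in HSF1 KO MEF, 4 higher and 3 lower, and for 8 in WT MEF, 5 higher and 3 lower. Over all genes this was so for 62% in HSF1 KO MEF, 39% higher and 23.1% lower, and for 70% in WT MEF, 40.8% higher and 29.2% lower. The median log2 fold change of the 10 genes was 0.12 in HSF1 KO MEF and 0.28 in WT MEF, beside 0.16 and 0.13 for all genes tested. Fold changes are on the log2(FPKM + 1) scale, which understates the change of low genes. Rescaling the libraries by median-of-ratios moved the median of all genes under LiCl to -0.004 in HSF1 KO MEF, against 0.163 as deposited, and to -0.016 in WT MEF, against 0.126. The split of called genes became 3236 higher and 3451 lower in HSF1 KO MEF, against 4479 and 2591 as deposited. It became 3815 higher and 3975 lower in WT MEF, against 4679 and 3327. The split of the readers turned with it in HSF1 KO MEF, to 2 higher and 4 lower with median-of-ratios and 3 higher and 4 lower with quantile normalization, and stayed at 5 higher and 3 lower in WT MEF with both. The count in HSF1 KO MEF depended on single libraries: without LiCl replicate 1, LiCl replicate 3 or untreated replicate 1 of these cells, 3 readers passed (Ythdf1, Igf2bp1 and Hnrnpa2b1), and Ythdf3, Ythdc2 and Hnrnpc did not.

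**Figure D2:**
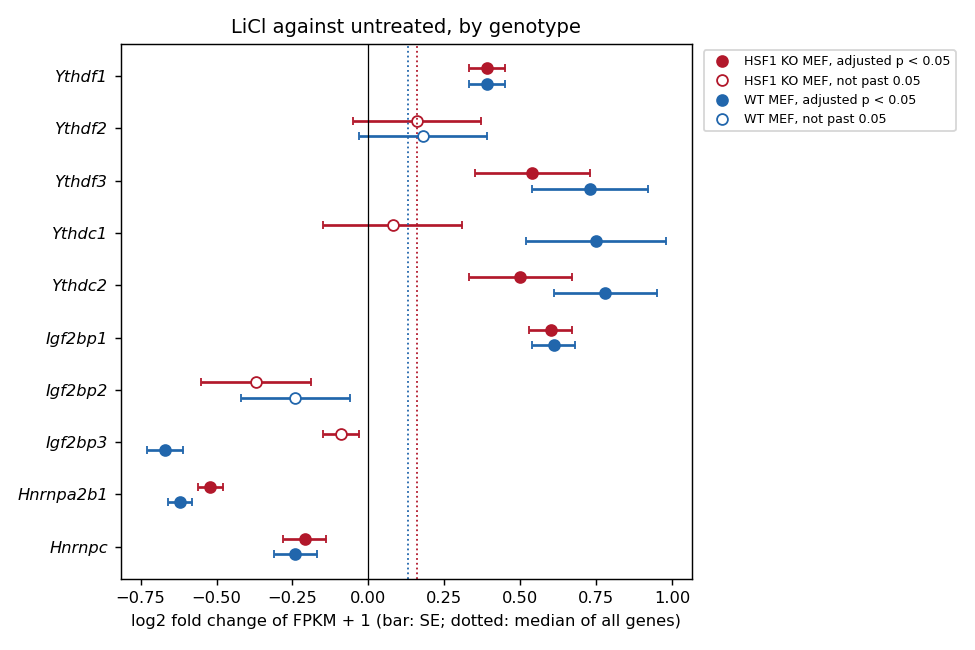
Log2 fold change of FPKM + 1 with LiCl against untreated cells for each reader, HSF1 KO MEF above WT MEF in each row, with bars for the SE, filled points for an adjusted p under 0.05 and dotted lines for the medians of all genes (0.16 and 0.13). The 2 points of a gene lie farthest apart for Igf2bp3, with -0.09 in HSF1 KO MEF and -0.67 in WT MEF, and Ythdc1, with 0.08 and 0.75.

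The second question was whether the response differed between HSF1 KO MEF and WT MEF. The design cannot tell the loss of HSF1 apart from other differences between these cells. The difference between the responses (HSF1 KO MEF minus WT MEF) passed for 1 of the 10 readers, Igf2bp3, where 31.3% of all genes tested passed, 16.1% higher and 15.3% lower. The median difference of the readers was -0.02, beside 0.01 for all genes. For Ythdf1 and Igf2bp1 the estimated differences were 0.01 ± 0.09 and -0.02 ± 0.10 (SE), with intervals of 2 SE of -0.17 to 0.18 and -0.23 to 0.19. For Ythdc1 the interval was wide, -1.31 to -0.03, with an adjusted p of 0.142 in limma.

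The cytoplasmic YTHDF proteins share most of their sequence: 70.2% to 73.2% of aligned residues were identical between pairs of the mouse proteins, translated here from the GENCODE transcripts. No other annotated transcript matched their own over 150 bases at 97% identity. Ythdf1, known for promoting the translation of methylated mRNA, had 31.97, 34.79 and 36.21 FPKM in LiCl-treated HSF1 KO MEF, against 24.83, 25.37 and 27.47 FPKM in untreated HSF1 KO MEF. It had 34.64, 34.29 and 36.64 FPKM in LiCl-treated WT MEF, against 26.5, 26.88 and 26.72 FPKM in untreated WT MEF. Every LiCl library was above every untreated library in both genotypes, and the genotypes overlapped under each condition. The log2 fold change with LiCl was 0.39 ± 0.06 (SE) in each, a 1.33-fold higher mean in HSF1 KO MEF (limma, adjusted p = 0.000254) and a 1.32-fold higher mean in WT MEF (adjusted p = 0.000225). The call held under every alternative run, with values of 0.19 to 0.44 for HSF1 KO MEF and 0.21 to 0.40 for WT MEF.

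The promoter of Ythdf1 is shown because its response to LiCl was near identical in the 2 genotypes. It is the RefSeq window of 250 bases before and 50 after the start site on the minus strand of GRCm38.p6, chr2:180920887-180921186. RefSeq windows matched 7 of the 10 readers. They were searched on both strands for the heat shock element core GAANNTTC, for its extension GAANNTTCNNGAA, which contains the core, for the TCF/LEF site CTTTGAT and for the E-box CACGTG. The extension and the E-box were added after the windows had been read. Capitals mark matches.
Ythdf1 promoter: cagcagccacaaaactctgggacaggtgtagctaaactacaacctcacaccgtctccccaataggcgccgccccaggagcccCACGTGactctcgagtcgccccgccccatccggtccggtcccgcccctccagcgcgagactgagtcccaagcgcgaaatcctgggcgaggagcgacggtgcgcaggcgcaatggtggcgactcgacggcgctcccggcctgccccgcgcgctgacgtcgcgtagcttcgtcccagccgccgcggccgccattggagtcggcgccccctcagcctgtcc
The window held 1 E-box, 168 bases before the start site, and none of the other motifs. Among all 32851 windows of this length 7.15% held an E-box, 7.86% the heat shock core, 0.603% its extension and 3.73% the TCF/LEF site. A match is a description of letters and not of binding.

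Ythdf3, which works with the other YTHDF proteins on translation and decay, had 28.46, 22.65 and 32.45 FPKM in LiCl-treated HSF1 KO MEF, against 16.39, 18.09 and 21.97 FPKM untreated. In WT MEF it had 29.72, 32.28 and 40.77 FPKM with LiCl, against 16.05, 19.81 and 25.53 FPKM untreated. The LiCl libraries were above the untreated ones in both genotypes, by a narrow gap in HSF1 KO MEF. The log2 fold change was 0.54 ± 0.19 in HSF1 KO MEF (limma, adjusted p = 0.0304) and 0.73 ± 0.19 in WT MEF (adjusted p = 0.00562). The call in HSF1 KO MEF was lost with median-of-ratios scaling (0.34, adjusted p = 0.132), with quantile normalization (0.41, adjusted p = 0.0836), with transcripts weighted by length (0.50, adjusted p = 0.0524), with the most abundant transcript alone (0.70, adjusted p = 0.0513) and without any of 4 single libraries (LiCl replicates 1 and 3 and untreated replicates 1 and 2 of these cells).

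Among its 3 transcripts, ENSMUST00000191774 has a 149-base exon at chr3:16186967-16187115 that the most abundant transcript ENSMUST00000108346 lacks. In turn it lacks a 33-base exon of the latter, and its last exon has 1052 bases, against 2901. ENSMUST00000191774 had 3.74, 6.21 and 5.45 FPKM in LiCl-treated HSF1 KO MEF, against 2.21, 2.83 and 2.41 FPKM untreated. It had 4.21, 4.81 and 6.13 FPKM in LiCl-treated WT MEF, against 1.66, 0.01 and 0.06 FPKM untreated. Untreated WT MEF were lowest, with 2 libraries near 0, and the split of fragments over these transcripts is an estimate of the assembler. The transcript rose with LiCl in WT MEF by 2.08 ± 0.34 (limma over all transcripts, adjusted p = 0.000859). In HSF1 KO MEF its change was 0.80 (adjusted p = 0.118), and the test of the difference in response was not passed (-1.28, adjusted p = 0.145). Untreated HSF1 KO MEF had more of it than untreated WT MEF, by 1.29 ± 0.34 (adjusted p = 0.0298).

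Ythdf2, known for recruiting the CCR4-NOT deadenylase to methylated mRNA, had 28.15, 17.79 and 31.26 FPKM in LiCl-treated HSF1 KO MEF and 20.81, 23.66 and 22.35 FPKM untreated. WT MEF had 17.09, 16.76 and 20.55 FPKM with LiCl and 16.23, 11.93 and 20.25 FPKM untreated. The libraries with and without LiCl overlapped in both genotypes, and the gene sum passed in no comparison (LiCl in HSF1 KO MEF 0.16 ± 0.21, in WT MEF 0.18 ± 0.21, limma adjusted p = 0.535 and 0.47). HSF1 KO MEF were above WT MEF without overlap when untreated, by 0.47 ± 0.21 (adjusted p = 0.109). This difference passed without HSF1 KO MEF LiCl replicate 2, the low library of its group, (adjusted p = 0.043) and without WT MEF replicate 3 (0.64, adjusted p = 0.044). Under LiCl it was 0.45 (adjusted p = 0.113), and 0.69 without HSF1 KO MEF LiCl replicate 2 (adjusted p = 0.013).

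The sum joined 2 transcripts that differed between the groups. ENSMUST00000152796 has 5 exons, 4129 bases and a coding length of 1737 bases, and ENSMUST00000085181 has 4 exons, 955 bases and a coding length of 153 bases. The short transcript lacks the 1584-base exon at chr4:132204132-132205715 (GRCm38) and the ends of the long one. The short transcript had 14.23, 7.85 and 14.5 FPKM in LiCl-treated HSF1 KO MEF and 11.05, 11.96 and 10.84 FPKM untreated. WT MEF libraries had 1.02, 0 and 0.98 FPKM with LiCl and 6.7, 1.74 and 8.38 FPKM untreated. It made up 47.0% ± 3.3 and 50.7% ± 2.3 of the gene sum in HSF1 KO MEF with and without LiCl, and 3.6% ± 3.2 and 32.4% ± 15.5 in WT MEF (SD, n = 3 each). All HSF1 KO MEF libraries with LiCl were above all WT MEF libraries with LiCl, a difference of 3.01 ± 0.46 (limma over all transcripts, adjusted p = 0.0011). Untreated, the libraries did not overlap either, but the difference in the short transcript did not pass (1.08 ± 0.46, adjusted p = 0.169). LiCl lowered it in WT MEF (-1.88 ± 0.46, adjusted p = 0.00883), with 0.06 ± 0.46 in HSF1 KO MEF (adjusted p = 0.95), and the 2 responses could not be told apart (1.93 ± 0.64, adjusted p = 0.0963).

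The long Ythdf2 transcript had 13.91, 9.94 and 16.76 FPKM in LiCl-treated HSF1 KO MEF and 9.76, 11.69 and 11.51 FPKM untreated, an overlap. It had 16.07, 16.76 and 19.57 FPKM in LiCl-treated WT MEF, against 9.53, 10.19 and 11.87 FPKM untreated, with no overlap. It rose in WT MEF (0.68 ± 0.17, adjusted p = 0.01), and its change in HSF1 KO MEF was 0.25 ± 0.17 (adjusted p = 0.317). Between genotypes the long transcript did not pass, with 0.06 untreated (adjusted p = 0.9) and -0.37 with LiCl (adjusted p = 0.185). Weighting each transcript by its length, which follows all fragments of the gene and not their assignment, gave a gene-level rise with LiCl of 0.54 in WT MEF (adjusted p = 0.0165) and 0.22 in HSF1 KO MEF (adjusted p = 0.292). On this scale HSF1 KO MEF and WT MEF differed by 0.19 untreated (adjusted p = 0.419) and by -0.13 with LiCl (adjusted p = 0.587). The split of fragments over transcripts with shared exons is an estimate of the assembler. Of the 29 reader transcripts tested, 2 rose and 6 fell with LiCl in HSF1 KO MEF, where 29.1% of all transcripts tested passed (18.2% higher, 10.9% lower), and 5 rose and 6 fell in WT MEF, where 35.9% passed (21.4% higher, 14.4% lower). The difference in response passed for 1 of them, the Igf2bp3 transcript, against 11.1% of all transcripts (5.43% higher, 5.67% lower). Between genotypes 5 were higher in untreated HSF1 KO MEF, against 15.3% of all transcripts (7.58% higher, 7.73% lower), and 5 with LiCl, against 17.8% (8.14% higher, 9.64% lower).

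**Figure D3:**
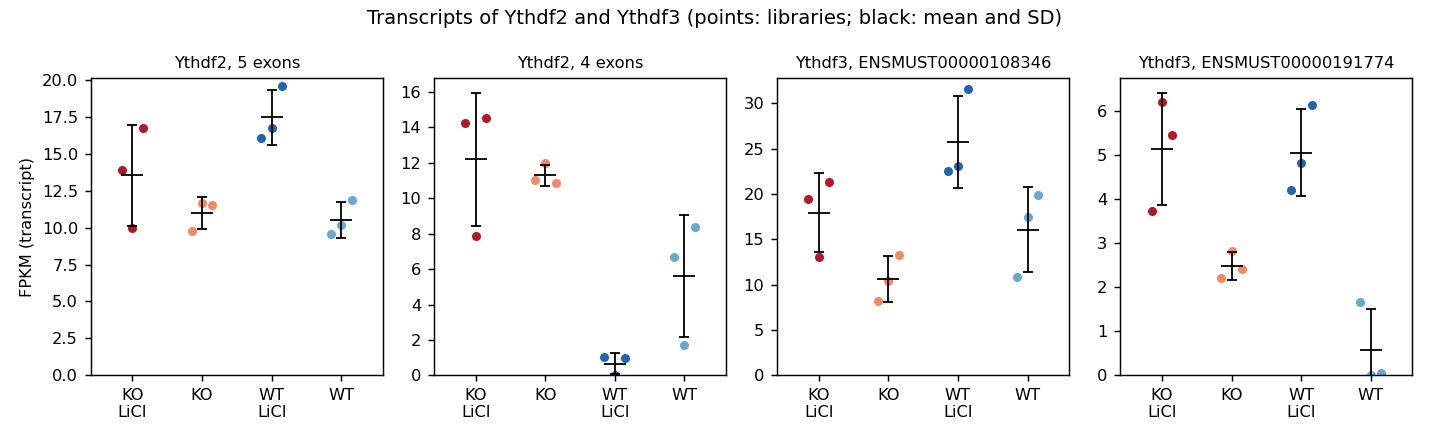
FPKM (linear axes from 0) of the 5-exon and 4-exon transcripts of Ythdf2 and of 2 transcripts of Ythdf3 in the 12 libraries, with points for libraries and black marks for mean and SD. The 4-exon Ythdf2 transcript is at 7.85 to 14.5 FPKM in LiCl-treated HSF1 KO MEF and at 0 to 1.02 FPKM in LiCl-treated WT MEF.

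The summed YTHDF level was 87.9 ± 12.4 FPKM in LiCl-treated HSF1 KO MEF and 67 ± 4.88 FPKM untreated, and 87.6 ± 9.04 and 63.3 ± 7.96 FPKM in WT MEF (SD, n = 3 each). The libraries with LiCl were above those without in each genotype, and the genotypes overlapped. Ythdf2 took 28.9% of the sum in HSF1 KO MEF and 20.7% in WT MEF with LiCl, and 33.3% and 25.3% untreated. These shares did not overlap between genotypes (two-sided exact permutation test, p = 0.1 for each, the smallest that 3 against 3 libraries allow). The shares rest on the FPKM assigned to the short transcript. With transcripts weighted by length, Ythdf2 took 21.3% ± 3.1 in HSF1 KO MEF and 20.8% ± 0.2 in WT MEF with LiCl, which overlapped (exact p = 1.0), and 23.8% ± 1.5 and 20.3% ± 1.5 untreated, which did not (exact p = 0.1).

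The nuclear reader Ythdc1, known for acting on splicing and export, had 10.54, 11.45 and 9.63 FPKM in LiCl-treated HSF1 KO MEF, against 13.35, 9.65 and 7.51 FPKM untreated. In WT MEF it had 20.87, 11.11 and 12.79 FPKM with LiCl, against 7.31, 8.11 and 9.12 FPKM untreated. The groups overlapped in HSF1 KO MEF. They were apart in WT MEF, where replicate 1 with LiCl stood highest. It rose with LiCl in WT MEF (0.75 ± 0.23, limma, adjusted p = 0.013), and its change in HSF1 KO MEF was 0.08 ± 0.23 (adjusted p = 0.792). The rise in WT MEF did not pass with the most abundant transcript alone (0.78, adjusted p = 0.0634). Over 21.5% of its longest coding transcript it shares sequence with an overlapping long noncoding gene on the same strand, Gm43055, which was not in the table.

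Ythdc2, a helicase with a YTH domain known for its role in meiosis in mouse germ cells, had the lowest mean of the readers in every group but LiCl-treated WT MEF, where Igf2bp3 was lower. It had 3.66, 2.59 and 4.01 FPKM in LiCl-treated HSF1 KO MEF, against 1.88, 1.95 and 2.51 FPKM untreated, and 3.8, 4.3 and 5.63 FPKM in LiCl-treated WT MEF, against 2.18, 1.8 and 2.75 FPKM untreated. LiCl libraries were above untreated ones in both genotypes. The log2 fold change was 0.50 ± 0.17 in HSF1 KO MEF (limma, adjusted p = 0.0269) and 0.78 ± 0.17 in WT MEF (adjusted p = 0.00195). In HSF1 KO MEF it did not pass with median-of-ratios scaling (0.35, adjusted p = 0.0921), nor without any of the same 4 libraries as for Ythdf3.

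The IGF2BP family held 2 of the 3 readers called between genotypes, Igf2bp1 and Igf2bp3. Identity between pairs of these proteins was 68.7% to 75.8% of aligned residues. Igf2bp1 and Igf2bp3 are known as oncofetal genes, high in the embryo and low in most adult tissues, while Igf2bp2 remains expressed in adults. Igf2bp3 had 11.32, 11.7 and 11.64 FPKM in LiCl-treated HSF1 KO MEF, against 11.8, 12.72 and 12.7 FPKM untreated. WT MEF libraries had 4.39, 4.29 and 4.5 FPKM with LiCl, against 7.35, 7.55 and 7.96 FPKM untreated. The 4 groups did not overlap, with a narrow gap between the groups of HSF1 KO MEF and a wide one in WT MEF. LiCl lowered it in WT MEF to 0.577 of the untreated mean (-0.67 ± 0.06, limma, adjusted p = 3.79e-06), and in HSF1 KO MEF the value was 0.931 of the untreated mean (-0.09 ± 0.06, adjusted p = 0.231). The difference between the responses was 0.58 ± 0.09 (adjusted p = 0.000659) and passed in all 22 alternatives run (0.48 to 0.68). With median-of-ratios scaling and with quantile normalization the change in HSF1 KO MEF passed too, at -0.28 (adjusted p = 0.00256) and -0.26 (adjusted p = 0.00391).

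HSF1 KO MEF had more Igf2bp3 than WT MEF, 1.63-fold untreated (0.64 ± 0.06, limma, adjusted p = 1.57e-05) and 2.63-fold with LiCl (1.22 ± 0.06, adjusted p = 1.21e-07). It has 1 transcript in the table, ENSMUST00000031838 with 15 exons (chr6:49085223-49214957, GRCm38). Its last 1529 bases, 35.2% of the transcript, overlap the 3′ end of Malsu1 on the other strand (chr6:49085223-49086751). The kit keeps the strand, and whether the quantification used it is not given in the sources used here. Malsu1, a mitochondrial ribosome assembly gene, was at 4.11 ± 1.19 and 3.04 ± 0.41 FPKM in HSF1 KO MEF with and without LiCl and 3.55 ± 0.38 and 3.72 ± 0.96 FPKM in WT MEF (SD, n = 3 each), and passed in no comparison (limma, adjusted p = 0.185 to 0.883). The promoter of Igf2bp3 is shown since it is the reader with the widest range of group means. It is the RefSeq window on the minus strand of GRCm38.p6, chr6:49214905-49215204, with E-box matches in capitals.
Igf2bp3 promoter: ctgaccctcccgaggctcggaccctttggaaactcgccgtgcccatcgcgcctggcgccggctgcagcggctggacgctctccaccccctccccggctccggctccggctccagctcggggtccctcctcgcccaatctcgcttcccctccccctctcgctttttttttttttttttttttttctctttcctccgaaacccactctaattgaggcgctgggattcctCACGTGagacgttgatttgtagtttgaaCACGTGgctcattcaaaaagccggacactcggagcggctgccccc
The window held 2 E-boxes, 23 bases before and 5 bases after the start site, and no heat shock core or CTTTGAT. The study names a further TCF motif for repression, AGAWAW, which was not searched.

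The genes whose levels over the 12 libraries were most like that of Igf2bp3 were Acta2 (smooth muscle actin, Pearson r = 0.995), Tagln (transgelin, r = 0.993) and Dpysl3 (r = 0.993), on log2(FPKM + 1). Acta2 averaged 1857 and 2338 FPKM in HSF1 KO MEF with and without LiCl, and 150.0 and 635.2 FPKM in WT MEF. The points share the 4 groups, so this describes a common pattern of group means. For Ythdf1 the nearest genes were Ttc17 (r = 0.985), Faf2 (r = 0.983) and the clock gene Cry1 (r = 0.981).

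Igf2bp1 had 10.05, 9.24 and 9.94 FPKM in LiCl-treated HSF1 KO MEF, against 5.71, 6.08 and 6.56 FPKM untreated. In WT MEF it had 6.26, 6.32 and 6.4 FPKM with LiCl, against 3.72, 3.67 and 3.97 FPKM untreated. LiCl libraries were above untreated ones in both genotypes, and untreated HSF1 KO MEF lay at about the level of WT MEF with LiCl. With LiCl it rose by 0.60 ± 0.07 in HSF1 KO MEF (limma, adjusted p = 4.41e-05) and by 0.61 ± 0.07 in WT MEF (adjusted p = 2.35e-05). HSF1 KO MEF exceeded WT MEF by 0.57 ± 0.07 untreated (adjusted p = 0.000105) and by 0.55 ± 0.07 with LiCl (adjusted p = 0.000125). Each of these calls held under every alternative run.

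Igf2bp2 had 7.89 to 12.49 FPKM in LiCl-treated HSF1 KO MEF and 12.37 to 16.2 FPKM untreated, and 9.92 to 10.98 FPKM in LiCl-treated WT MEF and 10.85 to 16.29 FPKM untreated. The groups overlapped in every comparison, and none passed (LiCl in HSF1 KO MEF -0.37 ± 0.18, limma, adjusted p = 0.111, and in WT MEF -0.24 ± 0.18, adjusted p = 0.262). In HSF1 KO MEF its fall passed with median-of-ratios scaling (-0.55, adjusted p = 0.0193) and quantile normalization (-0.52, adjusted p = 0.0234).

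The make-up of the family therefore differed between groups, as the stacked plot of the IGF2BP genes shows. The summed level was 32.1 ± 2.83 FPKM in LiCl-treated HSF1 KO MEF and 32.6 ± 2.80 FPKM untreated, and 21.3 ± 0.66 and 24.3 ± 3.43 FPKM in WT MEF (SD, n = 3 each). Igf2bp1 took 30.4% ± 1.4 and 18.8% ± 0.3 of it in HSF1 KO MEF with and without LiCl, and 29.7% ± 1.0 and 15.7% ± 1.5 in WT MEF. Igf2bp3 took 36.2% ± 3.8 and 38.2% ± 2.1 in HSF1 KO MEF, and 20.7% ± 0.3 and 31.6% ± 3.0 in WT MEF. Igf2bp2 took 33.3% ± 5.2 and 43.0% ± 2.4 in HSF1 KO MEF with and without LiCl, and 49.6% ± 1.2 and 52.6% ± 4.4 in WT MEF. Its share was lower in HSF1 KO MEF by 16.3 percentage points with LiCl and 9.7 untreated, and lower with LiCl in HSF1 KO MEF by 9.6, each without overlap (exact p = 0.1). The share of Igf2bp1 was higher with LiCl without overlap in both genotypes, and the share of Igf2bp3 was lower with LiCl without overlap in WT MEF, while it overlapped in HSF1 KO MEF (two-sided exact permutation tests, p = 0.1 for each of the first 3 and p = 0.5 for the last, with 0.1 the smallest possible).

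**Figure D4:**
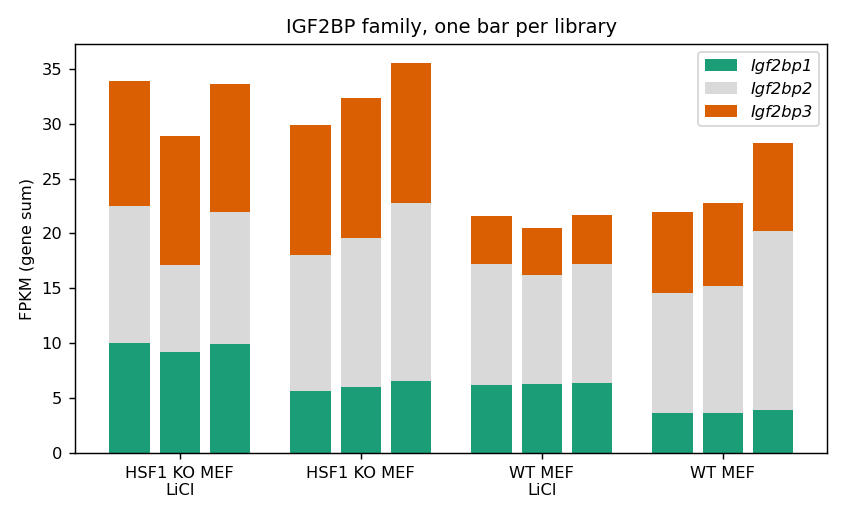
Summed FPKM of Igf2bp1, Igf2bp2 and Igf2bp3, stacked, with a bar for each of the 12 libraries. The Igf2bp3 segment is 4.29 to 4.5 FPKM in LiCl-treated WT MEF and 11.32 to 11.7 FPKM in LiCl-treated HSF1 KO MEF, and the Igf2bp1 segment is larger with LiCl in both genotypes.

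The hnRNP readers fell with LiCl. Hnrnpa2b1, known for a part in splicing and in the processing of primary miRNAs, had 128.38, 130.22 and 126.29 FPKM in LiCl-treated HSF1 KO MEF, against 187.87, 188.26 and 177.44 FPKM untreated. WT MEF libraries had 96.73, 94.75 and 94.29 FPKM with LiCl, against 146.54, 145.29 and 148.37 FPKM untreated. No 2 groups overlapped. LiCl lowered it to 0.695 of the untreated mean in HSF1 KO MEF (-0.52 ± 0.04, limma, adjusted p = 1.78e-06) and to 0.649 in WT MEF (-0.62 ± 0.04, adjusted p = 2.72e-07), and both calls held under every alternative. The difference between these responses was 0.10 ± 0.06 (adjusted p = 0.254), and it passed with quantile normalization (0.18, adjusted p = 0.0242). Its level in HSF1 KO MEF was 1.26-fold that in WT MEF untreated (0.33 ± 0.04, adjusted p = 0.000109) and 1.35-fold with LiCl (0.43 ± 0.04, adjusted p = 1.41e-05).

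The 3 main transcripts of Hnrnpa2b1, ENSMUST00000204188, ENSMUST00000203220 and ENSMUST00000069949, each fell with LiCl in both genotypes. The log2 fold changes were -0.59, -0.51 and -0.47 in HSF1 KO MEF (limma over all transcripts, adjusted p = 0.0182, 0.000938 and 0.0251) and -0.80, -0.48 and -0.50 in WT MEF (adjusted p = 0.00254, 0.000996 and 0.015). ENSMUST00000203220 carries a 120-base exon at chr6:51464428-51464547 (GRCm38), and its share of the gene sum was 30.3% ± 2.1 and 30.2% ± 1.9 in HSF1 KO MEF with and without LiCl and 33.6% ± 3.3 and 30.6% ± 2.2 in WT MEF. The most abundant, ENSMUST00000204188, did not pass between genotypes in untreated cells (0.24, adjusted p = 0.399). The promoter is shown because it was the only reader window with a heat shock element, the sequence that HSF1 binds. It is the RefSeq window of the second annotated start on the minus strand of GRCm38.p6, chr6:51469796-51470095, with the element in capitals.
Hnrnpa2b1 promoter: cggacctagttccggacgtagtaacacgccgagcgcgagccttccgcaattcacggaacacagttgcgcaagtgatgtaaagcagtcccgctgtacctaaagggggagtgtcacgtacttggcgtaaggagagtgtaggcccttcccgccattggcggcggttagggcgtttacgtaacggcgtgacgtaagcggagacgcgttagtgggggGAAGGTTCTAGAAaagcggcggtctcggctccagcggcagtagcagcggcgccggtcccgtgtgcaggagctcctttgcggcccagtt
The match to GAANNTTCNNGAA, with 3 units, lay at chr6:51469871-51469883, 38 bases before this start and 11 bases after the other annotated start. Of all 32851 windows, 198 held such a match, but this pattern was added after the windows had been read. The core GAANNTTC, searched from the start, was in 7.86% of all windows and in 9.04% of genes. Only 7 of the 10 readers had a window.

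Hnrnpc, which binds uridine tracts and so is known to respond to m6A through RNA structure, had 72.88, 83.01 and 76.06 FPKM in LiCl-treated HSF1 KO MEF, against 92.99, 87.64 and 86.97 FPKM untreated. In WT MEF it had 82.44, 75.85 and 78.32 FPKM with LiCl, against 88.91, 100.72 and 89.9 FPKM untreated. LiCl libraries were below untreated ones in both genotypes. It fell by 0.21 on the log2 scale in HSF1 KO MEF (SE 0.07, limma, adjusted p = 0.0233) and by 0.24 in WT MEF (SE 0.07, adjusted p = 0.01). The most abundant of its 9 transcripts, ENSMUST00000227458, did not follow, with 0.17 ± 0.15 in HSF1 KO MEF (adjusted p = 0.47) and -0.02 ± 0.15 in WT MEF (adjusted p = 0.927). ENSMUST00000227536 fell in both (-0.52, adjusted p = 0.0495, and -0.62, adjusted p = 0.0197). A processed pseudogene, Gm12696, matched 31.8% of its longest coding transcript at 97% identity or more, so its reads may be split.

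Between genotypes, 3 of the 10 readers exceeded WT MEF in untreated HSF1 KO MEF (Igf2bp1, Igf2bp3 and Hnrnpa2b1) and none was lower, where 38.1% of all genes tested passed, 17.8% higher and 20.4% lower. The same 3 were higher with LiCl, where 42.6% passed, 19.6% higher and 23% lower. The libraries of the genotypes did not overlap for 4 readers untreated, all higher in HSF1 KO MEF (the 3 and Ythdf2), against 49.5% of all genes, 22.6% higher and 26.9% lower. With LiCl they did not overlap for 3, all higher, against 53% of all genes, 24.1% higher and 28.8% lower. The median over the readers was 0.19 untreated and -0.01 with LiCl, beside -0.03 for all genes in each. In untreated HSF1 KO MEF all 12 macrophage markers were also above WT MEF, with a summed level of 1375 to 1580 FPKM, against 117.6 to 124.5 FPKM in untreated WT MEF. With LiCl the sums were 103.5 to 118.9 FPKM in HSF1 KO MEF and 41.0 to 44.9 FPKM in WT MEF. With LiCl 6 of them were above WT MEF in HSF1 KO MEF and 2 below. All 12 fell with LiCl in HSF1 KO MEF, where 21.1% of all genes tested fell. In WT MEF 7 fell and 2 rose, where 27.1% and 38.1% of all genes did. The difference between the responses (HSF1 KO MEF minus WT MEF) was lower for all 12, where 15.3% of all genes were lower. Of the 12, 2 were at 0 in every library of HSF1 KO MEF with LiCl and of both WT MEF groups. The part of these markers in the reader differences and in the LiCl responses of the readers was not tested.

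**Figure D5:**
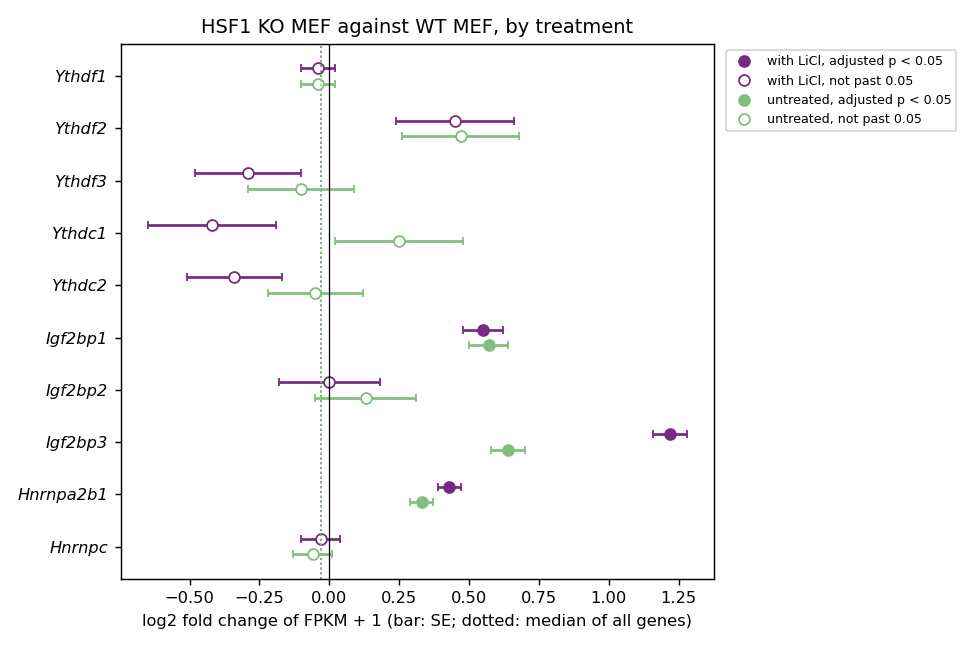
Log2 fold change of FPKM + 1 in HSF1 KO MEF against WT MEF for each reader, with LiCl above untreated in each row, bars for the SE, filled points for an adjusted p under 0.05 and dotted lines for the medians of all genes (-0.03 in both). Igf2bp3 stands farthest right, at 1.22 with LiCl and 0.64 untreated.

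The genes around the readers were counted in the same fits. Beside the counts of the 5 lists, the shares of all genes were 36.5% higher and 21.1% lower with LiCl in HSF1 KO MEF, 38.1% and 27.1% in WT MEF, and 17.8% and 20.4% between untreated genotypes. Of 14 m6A writers and erasers, 7 rose and 1 fell with LiCl in HSF1 KO MEF, and 9 rose and 1 fell in WT MEF (medians 0.32 and 0.35, beside 0.16 and 0.13 for all genes). The gene that fell was Fto, an m6A demethylase, with 16.1 FPKM in LiCl-treated HSF1 KO MEF, against 21.6 FPKM untreated, and 12.1 FPKM in LiCl-treated WT MEF, against 25.2 FPKM untreated. Its responses differed by 0.61 ± 0.09 (limma, adjusted p = 0.000581). Alkbh5, the other known m6A demethylase, rose in both (0.51, adjusted p = 0.000147 in HSF1 KO MEF, and 0.30, adjusted p = 0.00412 in WT MEF) and was lower in untreated HSF1 KO MEF (-0.49, adjusted p = 0.000362). The methyltransferase genes Mettl16 (0.48, adjusted p = 0.0101, and 0.89, adjusted p = 0.000142) and Zcchc4 (0.36, adjusted p = 0.00334, and 0.67, adjusted p = 2.98e-05) rose in both. Zc3h13, a subunit of the methyltransferase complex, rose in HSF1 KO MEF (0.25, adjusted p = 0.01), with 0.09 in WT MEF (adjusted p = 0.283). Between untreated genotypes none of the 14 was higher and 4 were lower in HSF1 KO MEF.

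Of 14 other RNA-binding proteins linked to m6A, 5 rose and 2 fell with LiCl in HSF1 KO MEF, and 6 rose and 3 fell in WT MEF, and 7 were higher and none lower in untreated HSF1 KO MEF against WT MEF. Snd1 fell in both genotypes, with 35.3 FPKM in LiCl-treated HSF1 KO MEF, against 51.4 FPKM untreated, and 21 FPKM in LiCl-treated WT MEF, against 41.1 FPKM untreated, and the difference between the responses was 0.40 ± 0.09 (limma, adjusted p = 0.00554). The stress granule gene G3bp1 rose in both (0.34, adjusted p = 0.00145, and 0.36, adjusted p = 0.000846). Prrc2a rose in HSF1 KO MEF (0.31, adjusted p = 0.00153), with -0.03 in WT MEF, and its responses differed by 0.34 (adjusted p = 0.0149). Eif3a, a translation initiation factor subunit gene, rose in WT MEF (0.37, adjusted p = 0.000366), with 0.08 in HSF1 KO MEF, and its responses differed by -0.29 (adjusted p = 0.0301).

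Of the 20 partners and effectors of readers, 19 were tested, and 7 rose and 1 fell with LiCl in HSF1 KO MEF, and 5 rose and 1 fell in WT MEF. Between untreated genotypes 3 were higher in HSF1 KO MEF and none was lower. The CCR4-NOT subunit gene Cnot9 rose in both (0.49, adjusted p = 6.55e-05, and 0.81, adjusted p = 7.72e-07), as did Pabpc1, the cytoplasmic poly(A)-binding protein gene (0.73, adjusted p = 7.37e-07, and 1.22, adjusted p = 7.19e-09). Srsf3, a splicing factor that partners YTHDC1, was the partner that fell (-0.39, adjusted p = 0.000667, and -0.74, adjusted p = 3.57e-06). Rida, known as an adaptor of YTHDF2 under its other name HRSP12, rose in HSF1 KO MEF (0.88, adjusted p = 1.77e-05), with 0.02 in WT MEF (adjusted p = 0.88), and these responses differed (0.86 ± 0.14, adjusted p = 0.000709).

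Of 22 other hnRNP genes, 10 rose and 2 fell with LiCl in HSF1 KO MEF, and 7 rose and 2 fell in WT MEF. The large fall of Hnrnpa2b1 was not shared by its relative Hnrnpa1, which rose by 1.08 ± 0.09 in HSF1 KO MEF (limma, adjusted p = 1.67e-06) and 1.34 ± 0.09 in WT MEF (adjusted p = 1.79e-07). Hnrnpa0, Hnrnpul2 and Hnrnpr responded differently in the genotypes, by 0.28 (adjusted p = 0.0149), 0.29 (adjusted p = 0.0178) and 0.50 (adjusted p = 0.0318). Hnrnpa0 and Hnrnpul2 rose in HSF1 KO MEF (0.37 and 0.36, adjusted p = 0.000129 and 0.000258), and Hnrnpr fell in WT MEF (-0.43, adjusted p = 0.00545). Between untreated genotypes 5 of the 22 were higher in HSF1 KO MEF and 1 was lower, with Hnrnpa1 (0.77, adjusted p = 4.03e-05) and Hnrnpab (0.37, adjusted p = 4.37e-05) among those higher.

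Of 12 let-7 and LIN28 oncofetal genes, 8 were tested, and 2 rose and 2 fell with LiCl in HSF1 KO MEF and 3 rose and 3 fell in WT MEF. Between untreated genotypes 4 of the 8 were higher in HSF1 KO MEF and none was lower, and the imprinted gene Peg10 was among them (1.06, limma, adjusted p = 5.19e-05). The transcription factor gene Arid3a fell in WT MEF (-0.57, adjusted p = 0.000416), with -0.12 in HSF1 KO MEF, and its responses differed by 0.46 (adjusted p = 0.0301), the direction of Igf2bp3. E2f5, of the E2F family, rose in WT MEF (0.76, adjusted p = 0.000203), with 0.18 in HSF1 KO MEF, and its responses differed by -0.58 (adjusted p = 0.0239). The chromatin protein gene Hmga1 had 242.6 FPKM in LiCl-treated HSF1 KO MEF, against 106.7 FPKM untreated, and 453.3 FPKM in LiCl-treated WT MEF, against 65.5 FPKM untreated, and its responses differed by -1.60 ± 0.09 (adjusted p = 6.88e-07), opposite in sign to Igf2bp3.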

How the data were processed

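Poly(A) RNA of HSF1 KO MEF and WT MEF, with and without LiCl, was sequenced in 12 stranded libraries. Tools listed in the submitters' processing notes are StringTie, HISAT2 2.0.5 and cutadapt, with the build GRCm38. For the annotation release and options, nothing is given in the sources used here. The table that the authors deposited holds 1 set of values per transcript, read here as FPKM, a unit no label or header states, since its sums differ between libraries and lie far below those of TPM. It holds 27185 transcripts with a highest group mean of at least 0.5 FPKM, so low genes had been left out. The depth is unknown, and precision was taken from the spread between libraries.

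Groups came from the labels, and the library without a number is called replicate 3. Transcripts were matched to GENCODE M21 by ID without version (80 were not, at most 0.193% of a library sum) and summed to genes. Genes whose mean reached 0.5 FPKM entered limma 3.58.1 (R 4.3.3) on log2(FPKM + 1), with a variance trend and 1 model for the 4 groups. P-values were adjusted over all these genes (Benjamini-Hochberg) and read at 0.05. There were 5 comparisons, and those of LiCl and of genotype share libraries. Transcripts were fitted the same way. The fit was tested on simulated data. Shares within families were compared by exact permutation. Alternatives were a pseudocount of 0.1, no filter or a filter of 5 FPKM, median-of-ratios and quantile scaling, the most abundant transcript alone, no variance trend, pairwise fits, a replicate block and leaving out each library. Weighting transcripts by length and leaving out replicate 3 of every group were added after the data had been seen.

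All 10 readers are named. From the other lists (other m6A-associated RNA-binding proteins, partners and effectors, writers and erasers, let-7 and LIN28 genes, other hnRNP genes) the genes named were up to 3 with the smallest adjusted p in the difference between responses and up to 2 between untreated genotypes. Genes like Ythdf1 and Igf2bp3 were the 3 with the highest Pearson r. Members and lists were chosen with earlier results of these data known. Promoters are RefSeq windows (GRCm38.p6), matches between transcripts came from BLAST 2.17.0, and proteins were aligned with Biopython 1.88.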

Additional observations from a re-analysis of the deposited data

Results flagged for a closer look

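The LiCl responses of Igf2bp3 differed between the genotypes in a test of the difference itself, by 0.58 (HSF1 KO MEF minus WT MEF, SE 0.09, limma, adjusted p = 0.000659). The value was -0.09 in HSF1 KO MEF and -0.67 in WT MEF, and the 3 libraries with LiCl were below the 3 untreated ones in each. It was the only one of the 10 readers to pass this test, which 31.3% of all genes passed.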

How the results depend on the processing

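Under the alternatives, 114 counts of called genes or transcripts stayed within 1.5 times the reported count and 5 did not. The number of readers called for LiCl in HSF1 KO MEF was 3 to 6 when each library was left out in turn, beside 6, and 3 to 7 over all alternatives. Quantile normalization gave 2 readers for the difference between responses, beside 1. For the most abundant transcript alone, the change of Hnrnpc with LiCl in HSF1 KO MEF turned to 0.17 (adjusted p = 0.394, limma), and that of Hsf1 between genotypes with LiCl turned to 0.23 (adjusted p = 0.688), since that transcript is the 3-exon one left in the knockout. With this setting the rises of Ythdf3 (0.67, adjusted p = 0.0515) and Ythdc1 (0.78, adjusted p = 0.0634) and the fall of Hnrnpc (-0.02, adjusted p = 0.906) in WT MEF, the rise of Ythdf3 in HSF1 KO MEF (0.70, adjusted p = 0.0513) and the Hnrnpa2b1 difference between untreated genotypes (0.24, adjusted p = 0.294) did not pass. The cause of the other changes was not tested.

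The labels do not say that the numbers mark shared runs. The study states that RNA sequencing was done 3 times and does not tie this to the numbers. Deviations from group means correlated at -0.01 to 0.195 (median 0.0525) between libraries of the same number. Between other libraries they correlated at -0.168 to 0.139 (median -0.0555). On average, 7 of 12 libraries were closest to their own number, and not every pair of the same number deviated together. The 6 pairs of replicate 3 did deviate together (0.125 to 0.195), and replicate 3 had the lowest sum in each group and the highest Ythdf3 and Ythdc2. Its sample records also lie in a separate series from those of the other libraries, and what this marks is not stated. Without replicate 3 in every group, chosen after the data had been seen, 5 readers were called for LiCl in HSF1 KO MEF and 7 in WT MEF, with Hnrnpc lost in both (adjusted p = 0.106 and 0.0558), and 1, 3 and 3 in the other comparisons. With a replicate block, 5 readers passed between genotypes with LiCl, beside 3, with Ythdf3 (-0.29, adjusted p = 0.0466) and Ythdc2 (-0.34, adjusted p = 0.0282) added. Among untreated cells Ythdf2 was added (0.47, adjusted p = 0.0475). Pairwise fits give no value for the difference between responses, and the filter of 5 FPKM removed Ythdc2. The unknown depth limits the low readers and the rare transcripts most.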
